A study of Mus musculus with 16 samples.

Results

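The genes described here are 42 interferon response genes, chosen by name as the rows of the deposited table whose gene symbol stood on a list of genes that cells are known to switch on after interferon. All 42 were found among the 32078 genes of the table, and all 42 were among the 19189 genes that passed a filter on low values, a normalised read count of at least 10 in at least 2 libraries. RNA from whole skin of mice aged 7 weeks was sequenced in 16 libraries, 2 for each of 8 groups. Of these groups 4 carried the label SDS alone at day 0, 1, 3 or 5, and the other 4 carried SDS and Topsym at those same days. SDS is usually sodium dodecyl sulfate, a detergent that irritates skin, and Topsym is known as a preparation of fluocinonide, a topical glucocorticoid. The labels spell out neither name. SDS stands in the label of all 8 groups, day 0 included, and no group without it was labelled. A topical treatment of 4 days is given for every library while the titles run to day 5. Strain, genotype, sex, vehicle, the number of mice behind a library and the day on which either agent was first applied are not stated in the labels. Thus what the skin called day 0 had received by then, with or without Topsym, is not known here. P-values measure only the spread between libraries within groups, pooled over all 8 groups, and this spread may be technical.

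Interferons are cytokines released in defence against viruses and other microbes. Type I interferons such as IFN-alpha and IFN-beta act through a complex that holds STAT2 and IRF9 and binds a DNA element called the interferon-stimulated response element (ISRE). IFN-gamma, made mainly by T cells and NK cells, acts at a second element, the gamma-activated site (GAS), and is known for inducing guanylate-binding proteins, immunity-related GTPases and the chemokines Cxcl9 and Cxcl10. In skin, keratinocytes, fibroblasts and resident or incoming leukocytes can all respond. Glucocorticoids act through a nuclear receptor that binds its own response element (GRE) and are known to dampen many inflammatory genes. The 42 genes were described in 6 roles: 7 genes of signalling and sensing, 3 of the ISG15 system, 14 antiviral effectors, 9 other induced genes, 7 GTPases linked to interferon-gamma and 2 chemokines.

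The DNA just upstream of many of these genes carried the ISRE letters, and the stretches below show this for genes whose values follow. RefSeq promoters (build GRCm38.p6, 250 bases before to 50 after a transcription start) were matched for 32 of the 42 genes, with 37 promoters. The ISRE was searched on both strands as GAAA, any 2 bases and GAAA, and stood in 20 of the 37 promoters (54.1%), against 3.44% of the 32851 mouse promoters of that length. By gene, 19 of 32 (59.4%) had it in at least 1 promoter, against 3.99% of 27025 genes. It was found in 6 of 6 matched GTPase genes, 7 of 11 antiviral effectors, 2 of 5 genes of signalling and sensing, 2 of 6 other induced genes, 1 of 2 genes of the ISG15 system and 1 of 2 chemokines. The GAS letters, TTC, any 3 bases and GAA, were in 8 of 37 promoters (21.6%), against 8.30% of all. A strict GRE, AGAACA, any 3 bases and TGTTCT, was in 0 of 37 and in 3 of 32851 promoters, so that absence in this window is the usual case. Such matches describe letters only, and the GAS and ISRE letters can overlap. The stretches run 5′ to 3′ along the strand of the gene, and capitals mark every ISRE match in them, which reads TTTC, any 2 bases and TTTC where it lies on the opposite strand. They lie at chr4:156200855-156200916 on the minus strand for Isg15, chr19:34640765-34640833 on the plus strand for Ifit1, chr19:34583353-34583436 on the plus strand for Ifit3, chr5:120777705-120777754 on the minus strand for Oas3, chr8:71537567-71537622 on the minus strand for Bst2, chr3:142620584-142620633 on the plus strand for Gbp2, chr3:142559979-142560034 on the plus strand for Gbp3 and chr11:48871421-48871470 on the minus strand for Irgm1.
Isg15: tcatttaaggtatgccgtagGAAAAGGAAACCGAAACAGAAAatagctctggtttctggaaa
Ifit1: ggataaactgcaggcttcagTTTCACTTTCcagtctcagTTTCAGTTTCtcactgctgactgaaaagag
Ifit3: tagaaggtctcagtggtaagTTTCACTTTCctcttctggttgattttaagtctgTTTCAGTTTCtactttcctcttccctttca
Oas3: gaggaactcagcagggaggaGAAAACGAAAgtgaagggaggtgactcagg
Bst2: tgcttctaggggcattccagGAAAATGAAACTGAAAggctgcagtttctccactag
Gbp2: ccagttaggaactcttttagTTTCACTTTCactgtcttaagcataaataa
Gbp3: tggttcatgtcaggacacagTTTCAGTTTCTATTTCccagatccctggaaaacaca
Irgm1: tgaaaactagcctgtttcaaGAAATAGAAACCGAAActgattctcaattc
The Ifit3 stretch was identical to that of its neighbour Ifit3b, and each of the stretches of Ifit1 and Ifit3 held separate matches. In Isg15, Bst2, Gbp3 and Irgm1 the matches ran into each other.

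Many of the 42 genes are neighbours in the genome. They lay on 15 chromosomes (GENCODE M21, GRCm38), and 21 of them stood in 8 runs in which successive genes were within 1 Mb. Ifit2, Ifit3, Ifit3b and Ifit1 lay at chr19:34550694-34650009, Gbp5, Gbp7, Gbp3 and Gbp2 at chr3:142493978-142638008, and Oas2, Oas3 and Oas1a at chr5:120730333-120907521. The shorter runs joined Oasl2 with Oasl1, Cxcl9 with Cxcl10, Rsad2 with Cmpk2, Mx1 with Mx2 and Dhx58 with Ifi35. Reads of near copies may be shared between genes: 57.6% of the windows of 50 bases in Oas1a also occurred in Oas1g, 51.2% of those in Ifit3 occurred in Ifit3b, and 25.6% of those in Ifi206 occurred in another gene. Values of these 4 genes are therefore uncertain as values of a single gene. No source used here says if reads were assigned by strand, and transcripts that overlap on opposite strands cannot be told apart.

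Libraries held 15199656 to 32066246 reads recovered from the normalised values, and those of day 5 detected the fewest genes (19885 to 20774, against 22875 to 23740 at the other days). Markers of skin were present throughout, with keratinocyte keratins and fibroblast collagens among the listed genes. The summed markers of fibroblasts fell from day 0 to day 5 in both arms, and those of keratinocytes were highest at day 5. In whole skin, fewer cells of a type and less RNA per cell cannot be told apart. For the 42 genes, both libraries of Topsym at day 0 stood apart from the other 14, with a median log2 difference from SDS day 0 of 2.01 and 1.93, while the next highest group, Topsym at day 1, stood at 0.37 and 0.34. SDS alone stood at -0.16 and -0.31 at day 1, at -0.03 and -0.05 at day 3 and at -1.79 and -1.38 at day 5, and Topsym at -0.94 and -0.92 at day 3 and at -2.82 and -2.66 at day 5.

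**Figure D1:**
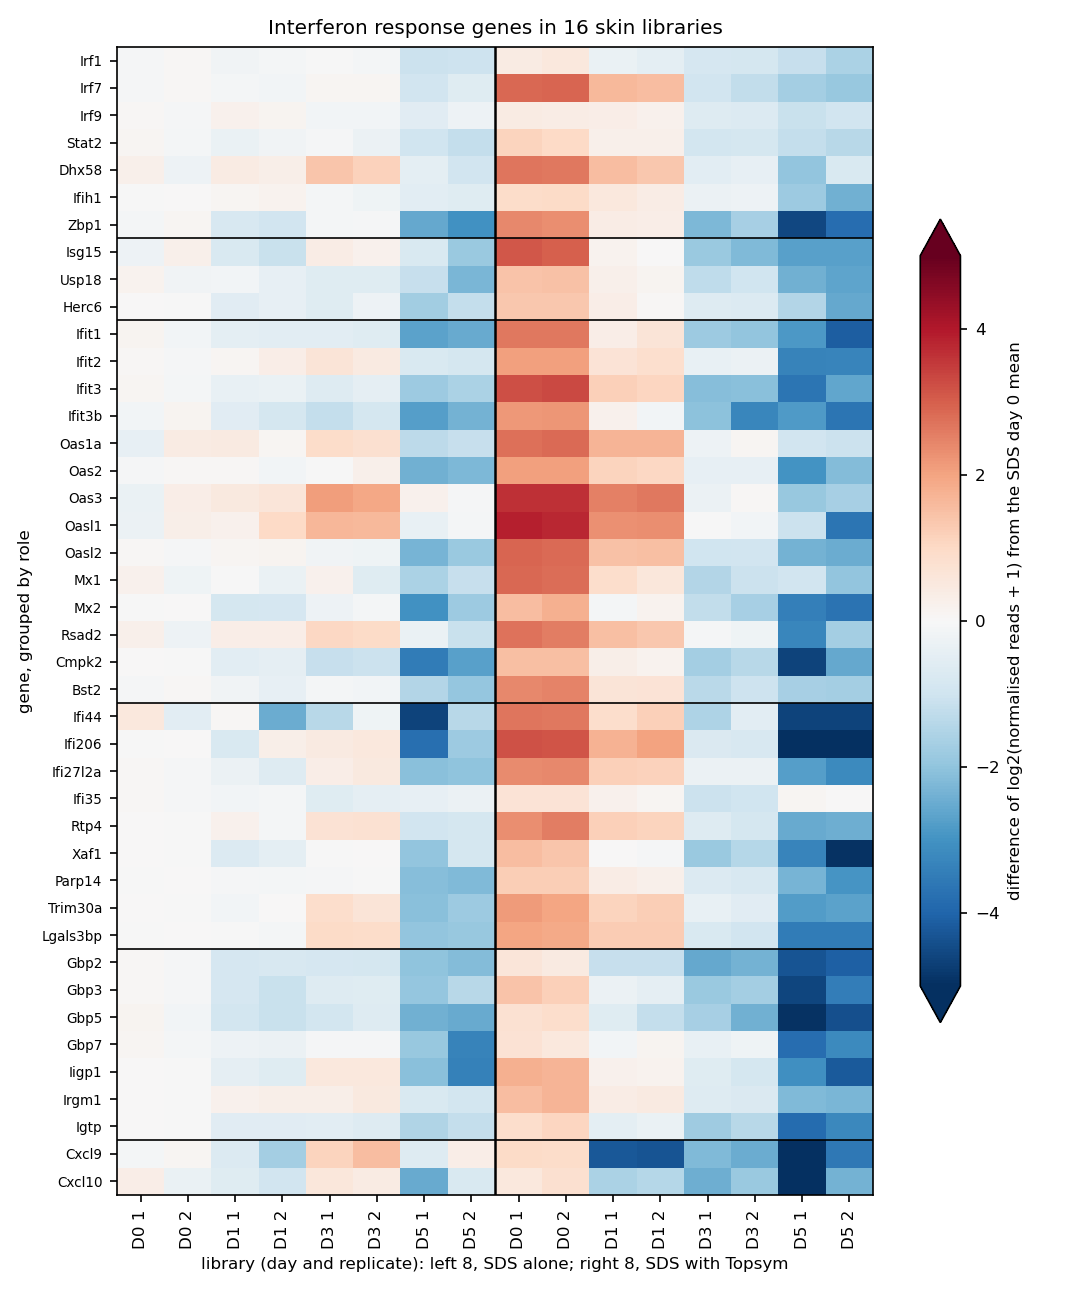
Level of each of the 42 genes (vertical axis, grouped by role) in each of the 16 libraries (horizontal axis), as the difference of log2(normalised read count + 1) from the mean of the 2 SDS day 0 libraries. Colours end at 5 either way. The 2 libraries of Topsym at day 0 are red for all 42 genes, and those of Topsym at day 5 are blue for nearly all, apart from Ifi35.

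Topsym at day 0 was the group with the highest mean for 41 of the 42 genes. The exception was Cxcl9, a chemokine that attracts T cells, which was highest in SDS alone at day 3. Topsym at day 5 was the lowest group for 39 genes, the exceptions being Oas1a (lowest in SDS alone at day 5), Cxcl9 (Topsym at day 1, barely below day 5) and Ifi35 (Topsym at day 3). Within the Topsym arm, the group means of 40 genes went down at every step from day 0 to day 5, all but those of Cxcl9 and Ifi35. Within SDS alone no such order held: 21 genes were highest at day 0, 3 at day 1, 18 at day 3 and 0 at day 5, and 39 were lowest at day 5. These orders are descriptions that were not counted over all genes, and neighbouring groups in them did not always differ beyond their spread.

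At day 0, skin with Topsym held more RNA of interferon response genes than skin without it. Of the 42 genes, 37 were higher and 0 were lower, with a median log2 difference of 1.98, against a median of -0.00361 over all genes tested. Over all genes tested, 22.0% passed the same threshold, an adjusted p of 0.05, with 10.8% higher and 11.2% lower. Both Topsym libraries lay above both libraries without it for all 42 genes, as they did for 29.9% of all genes tested, while they lay below for 0 of the 42 and for 31.0% of all. The count held at 32 to 34 when each library of these groups was left out in turn.

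Genes of signalling and sensing were higher in 7 of 7 cases, with a median of 1.06. Irf7, the transcription factor that amplifies type I interferon responses, was measured at 424 and 467 normalised reads in SDS day 0 and at 3304 and 3357 with Topsym, a log2 difference of 2.90. Stat2, a subunit of the factor that binds the ISRE, went from 1027 and 886 to 2051 and 1928 (1.06). Neither pair of libraries overlapped, and the rise of Irf7 was the steeper one. Dhx58, a helper of RNA sensing in the cytoplasm, rose by 2.65 and Zbp1, a sensor of Z-form nucleic acids, by 2.37, while Irf1 and Irf9 rose by 0.46 and 0.41.

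The 3 genes of the ISG15 system all rose, with a median of 1.45. Isg15, a ubiquitin-like protein attached to other proteins during antiviral responses, was measured at 93.4 and 131 without and at 964 and 881 with Topsym (log2 difference 3.05). Usp18, the protease that removes ISG15 and restrains interferon receptor signalling, went from 185 and 145 to 447 and 451 (1.45). All Topsym libraries were above those without for both genes.

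The antiviral effectors moved the furthest of the roles by median, 2.64, and 14 of 14 rose. Oasl1, a relative of the OAS enzymes that sense double-stranded RNA, was measured at 42.3 and 62.5 without and at 783 and 718 with Topsym, a log2 difference of 3.84 ± 0.54 (SE; adjusted p = 5.36e-05). Oas3, an OAS enzyme that makes the activator of RNase L, went from 50.2 and 78.5 to 792 and 810 (3.65 ± 0.23, adjusted p = 4.98e-09). Ifit3, a scaffold among the IFIT proteins that bind foreign RNA, went from 387 and 340 to 3405 and 3605 (3.27 ± 0.23, adjusted p = 1.58e-08). The spread within each of these pairs of libraries was small beside the gap between groups. Oasl2 went from 515 and 483 to 3708 and 3575 (2.86). Mx1, a GTPase that blocks influenza viruses, rose by 2.82, Rsad2, the antiviral enzyme viperin, by 2.64 and Bst2, which tethers budding viruses to the cell, by 2.45. The smallest rise of the role was 1.499, that of Cmpk2, a nucleotide kinase encoded next to Rsad2.

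Among the other induced genes 8 of 9 rose, with a median of 2.06. Lgals3bp, a secreted glycoprotein that binds galectins, was measured at 1586 and 1630 without and at 6322 and 5936 with Topsym (log2 difference 1.93). Ifi27l2a, a small membrane protein of the IFI27 family, went from 945 and 861 to 4629 and 4728 (2.37). Ifi206 differed by 3.18, and the 1 gene that did not pass, Ifi44, differed by 2.66 from low levels (34.4 and 16 against 157 and 151).

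The GTPases linked to interferon-gamma differed less, with a median of 0.98 and 5 of 7 higher. Irgm1, an immunity-related GTPase that acts on vacuoles holding microbes, was measured at 426 and 410 without and at 1204 and 1348 with Topsym (log2 difference 1.61). Gbp2, a guanylate-binding protein, went from 1216 and 1136 to 1786 and 1605 (0.53). The libraries did not overlap for either gene. Iigp1 rose by 1.73 and Gbp3 by 1.32, while Gbp5 (0.82) and Gbp7 (0.62) did not pass. Neither chemokine passed: Cxcl9 was measured at 45.8 and 52.9 without and at 97.5 and 94.3 with Topsym (0.95), and Cxcl10 at 67.8 and 41.7 against 76.4 and 93.5 (0.66). The difference between the roles was not tested.

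Of the rest of the interferon pathway, 70 symbols were listed, some of them names of the same gene, such as Ddx58 and Rigi. Of these symbols, 49 were in the table and 45 passed the filter. At day 0, 20 of these 45 were higher with Topsym and 0 lower, with a median of 0.28, where 10.8% of all genes were higher and 11.2% lower. The largest rise was that of Tlr7, an endosomal sensor of single-stranded RNA, from 83.7 and 72.9 to 225 and 250 (log2 difference 1.59). Ligands were hardly measured: only Ifnab, Ifng, Ifnk and Ifnz were in the table, and 0 of these 4 passed the filter. The other listed ligands had no row under the names searched, so their levels are not known here. Ifng had 3 reads over both libraries without Topsym and 21 with it, a ratio of 7.66 with a 95% counting interval of 2.26 to 39.6, which covers counting error only and takes each read as a separate count.

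Markers of monocytes and macrophages moved with this difference. Of 12 such markers 12 were higher with Topsym at day 0, where 10.8% of all genes were higher and 11.2% lower. The summed level of these markers was 32300 to 32900 without and 71800 to 72400 with Topsym, with none at 0. Fcgr1, a high-affinity antibody receptor of these cells that is itself known to respond to interferon, was measured at 107 and 111 without and at 764 and 848 with Topsym. Red blood cell markers were higher in 5 of 5 cases, with sums of 2400 to 3070 and 9700 to 11000. Fibroblast markers summed to 290000 to 299000 without and 407000 to 414000 with Topsym. Adipocyte markers summed to less with Topsym (9560 to 9570 without, 5400 to 5470 with), as did endothelial markers (2880 to 2950 without, 2070 to 2110 with). Markers of T and NK cells were higher in 0 and lower in 0 of 10, with sums of 1470 to 1500 and 1720 to 1810 and none at 0. Siglech, a defining marker of plasmacytoid dendritic cells, which are known for making type I interferon, stood at 30.8 and 32.1 without and at 5.03 and 9.75 with Topsym. The list of 5 markers of these cells went the other way by count, with 2 higher and 0 lower, and summed to 15200 to 16100 without and 17100 to 18600 with Topsym, none at 0. Most of that sum was Ly6d, a gene that keratinocytes also express (14229 and 15118 without, 16078 and 17563 with Topsym). The part of these cells in the differences of the interferon response genes was not tested.

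**Figure D2:**
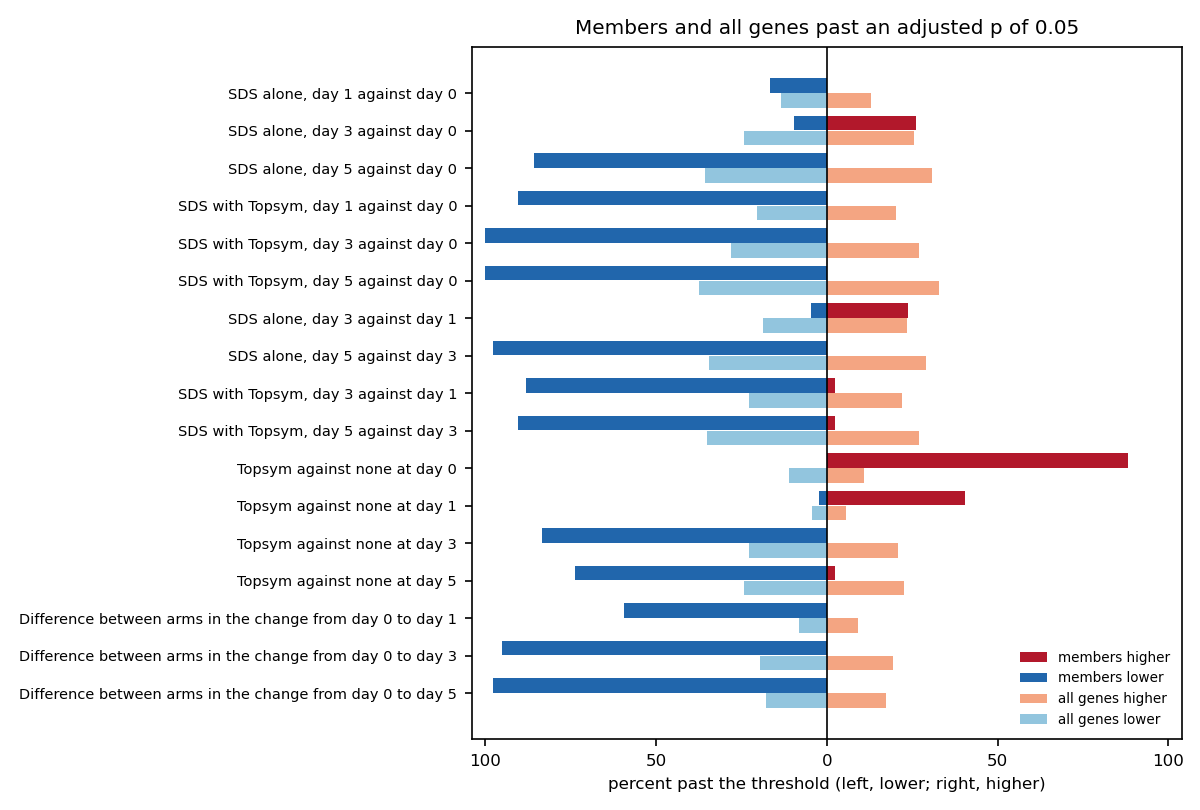
Percent of the 42 genes (dark bars) and of the 19189 genes tested (light bars) that passed an adjusted p of 0.05 in each of 17 comparisons, lower to the left and higher to the right. The 42 genes lie to the right for Topsym at day 0, with 37 higher, and mostly to the left for every comparison of day 5 with an earlier day.

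In SDS alone, the 42 genes stayed near their day 0 level over 3 days as a group and were lower by day 5. At day 1, 0 were higher and 7 lower, with a median log2 difference of -0.26, where 26.2% of all genes passed (12.8% higher, 13.5% lower). At day 3, 11 were higher and 4 lower, with a median of -0.05, where 49.6% passed (25.4% higher, 24.2% lower). At day 5, 0 were higher and 36 lower, with a median of -1.65, where 66.5% passed (30.7% higher, 35.8% lower). The medians over all genes were -0.03, -0.01 and -0.09. At day 1 and day 3 the shares of the 42 genes called in either direction were below those of all genes.

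The 7 lower at day 1 were led by Gbp5, measured at 166 and 140 at day 0 and at 79.6 and 70.5 at day 1 (log2 difference -1.02 ± 0.33, adjusted p = 0.0309). Gbp3 went from 322 and 301 to 176 and 144 (-0.96 ± 0.28, adjusted p = 0.0163). Isg15 went from 93.4 and 131 to 64.1 and 50.4 (-0.95 ± 0.32, adjusted p = 0.0373). The others were Gbp2, Igtp, Zbp1 and Ifi27l2a, so that 4 of the 7 GTPases linked to interferon-gamma fell. This count was the least stable one. It was 1 without replicate 2 of SDS day 1 and 3 to 4 without any other single library of these days, and the calls of Gbp3, Gbp5 and Isg15 were each lost without at least 3 of these 4 libraries in turn. It was 4 without both Topsym day 0 libraries in the fit and 15 by edgeR.

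On day 3 without Topsym, the genes went different ways, and the largest rises were among antiviral effectors and sensors. The 11 rises among the 42 genes lay near the share of all genes that rose (25.4%). The 4 falls lay below the share that fell (24.2%), and a difference between roles was not tested. Oas3 was measured at 50.2 and 78.5 at day 0, at 87.4 and 94.9 at day 1 and at 273 and 241 at day 3, a log2 difference of 2.01 ± 0.23 from day 0 (adjusted p = 1.59e-06). Oasl1 went from 42.3 and 62.5 at day 0 to 166 and 162 at day 3 (1.65 ± 0.54, adjusted p = 0.0175), and Dhx58 from 98.7 and 68.9 to 220 and 187 (1.29 ± 0.31, adjusted p = 0.00263). The day 3 libraries of these genes lay above both of day 0. Rsad2 rose by 0.99, Lgals3bp by 0.93, Oas1a by 0.85, Trim30a by 0.75, Rtp4 by 0.73, Ifit2 by 0.55, Ifi27l2a by 0.42 and Irgm1 by 0.40. Trim30a is known as a restrainer of inflammatory signalling, and Rtp4 binds RNA of flaviviruses.

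Lower at day 3 were 2 GTPases, an antiviral effector and Ifi35. Gbp2 went from 1216 and 1136 at day 0 to 663 and 643 (log2 difference -0.85 ± 0.11, adjusted p = 5.3e-06), and Igtp from 367 and 357 to 251 and 234 (-0.58 ± 0.20, adjusted p = 0.0254). Ifi35 went from 531 and 498 to 338 and 372 (-0.53 ± 0.09, adjusted p = 0.000172), and Ifit3b fell by 1.02. Ifit2 and its neighbour Ifit3b thus stood on opposite sides, though reads of Ifit3b may be shared with Ifit3. The count of 15 was 9 without replicate 2 of SDS day 3 and 23 by edgeR, and the calls of Igtp and Oasl1 were lost without single libraries.

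Between day 1 and day 3 of SDS alone, 10 genes rose and 2 fell, with a median of 0.22 against 0.04 over all genes. Of all genes, 42.2% passed (23.6% higher, 18.6% lower). The 10 rises among the 42 genes lay near the share of all genes, and the 2 falls lay below it. Cxcl9 was measured at 30.1 and 14.3 at day 1 and at 107 and 144 at day 3 (log2 difference 2.52 ± 0.60, adjusted p = 0.00267). Oas3 rose by 1.48 and Isg15 went from 64.1 and 50.4 to 144 and 128 (1.24 ± 0.32, adjusted p = 0.00457). Iigp1 rose by 1.06, Lgals3bp by 0.98, Dhx58 by 0.94, Ifi27l2a by 0.90, Trim30a and Zbp1 by 0.80 and Rtp4 by 0.67. Ifi35 fell by 0.42, and Irf9, the DNA-binding partner of STAT2, went from 1017 and 969 to 790 and 786 (-0.33 ± 0.10, adjusted p = 0.00994). The count of 12 was 20 when only the libraries compared were in the fit, and the call of Irf9 was lost without 2 of the 4 libraries in turn.

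Levels of the genes with the highest means in each role followed these counts over SDS alone. Irf7 was measured at 419 and 406 at day 1, at 475 and 474 at day 3 and at 226 and 293 at day 5. Stat2 was at 765 and 834, then 912 and 788, then 478 and 422. Both signalling genes were nearly level to day 3 and lower at day 5. Usp18 was at 148 and 124 at day 1, 107 and 106 at day 3 and 72.6 and 32.6 at day 5, and Isg15 ended at 65.4 and 29.8. The day 5 libraries of these genes of the ISG15 system lay further apart from each other than those of the earlier days did in proportion. Oasl2 was at 530 and 552, then 446 and 434, then 99.6 and 139. Ifit3 was at 281 and 291, then 234 and 263, then 102 and 120. These antiviral effectors had no peak after day 1, unlike Oas3.

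Lgals3bp was measured at 1582 and 1513 at day 1, at 3107 and 3006 at day 3 and at 410 and 427 at day 5. Ifi27l2a was at 738 and 571, then 1149 and 1273, then 212 and 224. Both peaked at day 3 among the days of SDS alone, and both were lowest at day 5. Gbp2 ended at 294 and 264. Irgm1 was at 483 and 505, then 517 and 590, then 246 and 220, so that these GTPases kept different courses to day 3. Cxcl9 ended at 31.3 and 62.4. Cxcl10 was at 35.0 and 26.9, then 79.9 and 71.9, then 8.54 and 31.2. The day 5 libraries of the chemokines differed widely from each other.

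**Figure D3:**
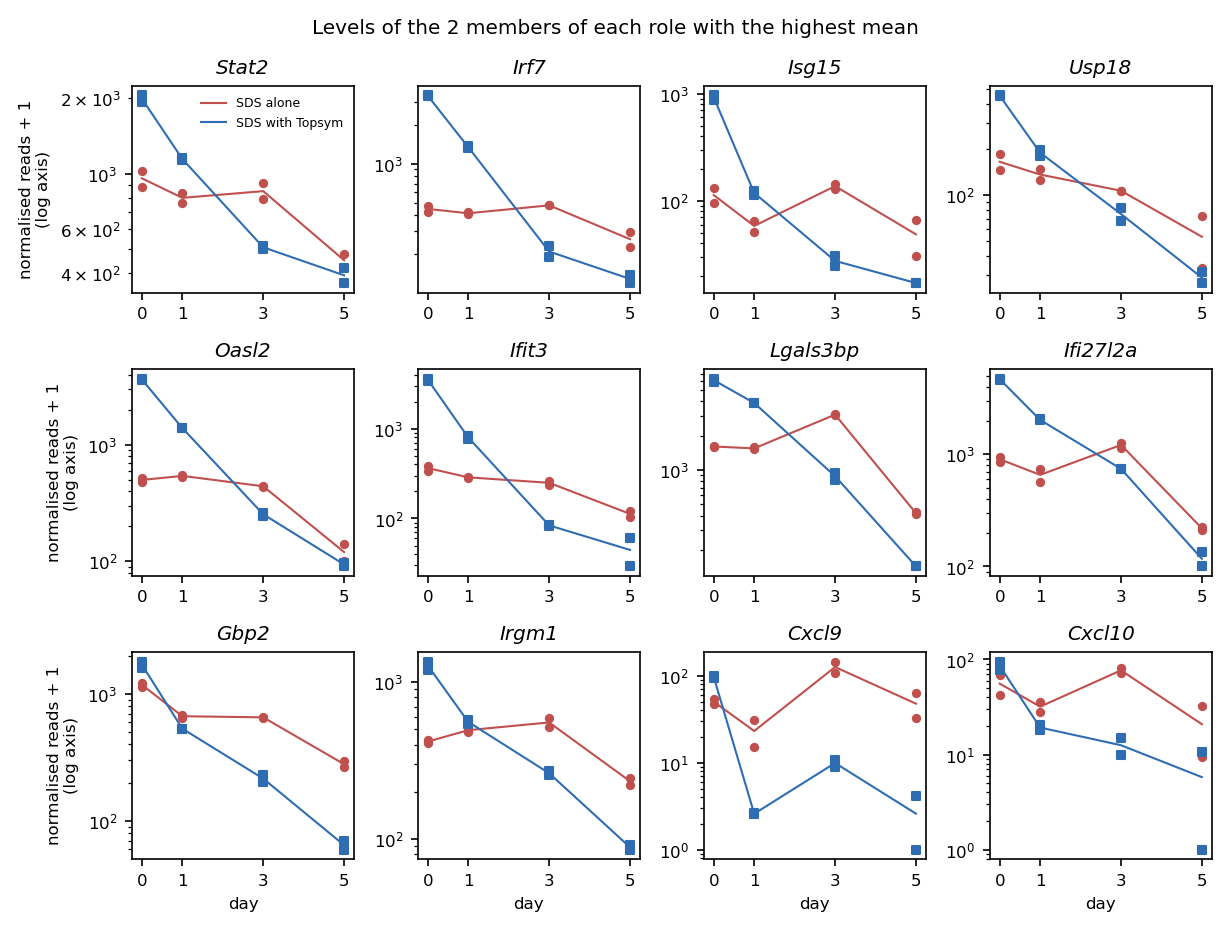
Normalised read count + 1 (vertical, log axis) by day (horizontal) for the 2 genes of each role with the highest mean. Points are libraries (red circles, SDS alone; blue squares, SDS with Topsym) and lines join group means. Lines of the arms cross between day 1 and day 3 for most genes, with Irf7 at 3304 and 3357 in Topsym at day 0 and 137 and 118 at day 5.

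By day 5 of SDS alone, 11 of 14 antiviral effectors, 9 of 9 other induced genes, 7 of 7 GTPases, 6 of 7 genes of signalling and sensing and 3 of 3 of the ISG15 system were below day 0, and 0 of 2 chemokines passed. Cmpk2 was measured at 174 and 170 at day 0 and at 14.2 and 25.5 at day 5 (log2 difference -3.11 ± 0.45, adjusted p = 1.43e-05). Zbp1 went from 288 and 327 to 51.2 and 36.8 (-2.79 ± 0.24, adjusted p = 2.77e-08), and Iigp1, an immunity-related GTPase, from 311 and 305 to 71.1 and 28.3 (-2.75 ± 0.34, adjusted p = 2.14e-06). Neither Oas3 (0.08) nor Oasl1 (-0.23) passed, and both had been raised at day 3. From day 3 to day 5 alone, 0 genes rose and 41 fell, with a median of -1.66, where 63.4% of all genes passed (28.9% higher, 34.5% lower). Iigp1 fell by 3.28 from 449 and 444, Lgals3bp by 2.87 and Zbp1 by 2.71 from 287 and 295. The 1 gene that did not fall, Ifi35, differed by 0.19.

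Cell markers also moved over these days. The summed monocyte and macrophage markers went from 32300 to 32900 at day 0 to 47000 to 48700 at day 1, 69400 to 71300 at day 3 and 13900 to 14000 at day 5, with none at 0, and 12 of 12 were below day 0 at day 5. T and NK cell markers went down from 1470 to 1500 at day 0 to 314 to 339 at day 3, with Cd8a at 0, and to 170 to 196 at day 5, with Ncr1, Klrb1c and Gzma at 0. Of the 5 markers of plasmacytoid dendritic cells, 2 were higher and 2 lower at day 5 than at day 0, with Siglech and Klk1 at 0. Their sum was 40300 to 40500, of which Ly6d made 39908 and 40076. Over all genes, 30.7% were higher and 35.8% lower at day 5 than at day 0. How far the cell markers account for levels of the interferon response genes was not tested.

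Among the 45 other pathway genes, 14 rose and 4 fell at day 1 of SDS alone, and 22 rose and 8 fell at day 3. At day 5, 13 rose and 18 fell. Their medians at these days were 0.07, 0.36 and -0.20. Over all genes, 12.8% were higher and 13.5% lower at day 1, 25.4% and 24.2% at day 3, and 30.7% and 35.8% at day 5. The day 5 counts of the 45 pathway genes lay near these shares. The largest rise at day 3 was that of Il18rap, a subunit of the IL-18 receptor, from 56.4 and 44.1 to 1194 and 1315 (log2 difference 4.62), and the largest fall past the threshold was that of Il18, the cytokine itself, from 866 and 862 to 386 and 414 (-1.11). Socs3, an inhibitor of cytokine signalling through JAK and STAT proteins, rose by 2.65 and Tlr7 by 2.87 at day 3. Stat3, which serves IL-6 family cytokines, rose by 1.35 at day 3. Tbx21, the T cell factor T-bet, had the steepest fall at day 5, with 33 reads over both libraries at day 0 and 2 at day 5, a ratio of 0.103 with a 95% counting interval of 0.0119 to 0.40.

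In the Topsym arm, interferon response genes fell from their high day 0 level at each later day. At day 1, 0 were higher and 38 lower than at day 0, with a median log2 difference of -1.30, where 40.8% of all genes passed (20.3% higher, 20.5% lower). At day 3 all 42 were lower, with a median of -2.93, where 55.2% passed (27.0% higher, 28.2% lower). At day 5 all 42 were lower again, with a median of -4.996, where 70.2% passed (32.8% higher, 37.5% lower). The medians over all genes were -0.03, -0.04 and -0.08. All 3 comparisons share the Topsym day 0 libraries, which held the highest levels, so they are not independent of each other.

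At day 1 of this arm the steepest fall among the more abundant genes (mean of 100 or more at day 0) was that of Isg15, from 964 and 881 to 124 and 111 (log2 difference -2.96 ± 0.32, adjusted p = 1.17e-06). Cxcl9, with a mean of 95.9 just under that limit, fell further, from 97.5 and 94.3 to 1.64 and 1.55. Ifit3b fell from 413 and 423 to 106 and 82.0 (-2.16 ± 0.41, adjusted p = 0.000412). Ifit1, which binds RNA lacking the host cap marks, fell from 1165 and 1161 to 234 and 289 (-2.16 ± 0.30, adjusted p = 2.09e-05). By day 3 the largest falls from day 0 were those of Ifit3, to 81.9 and 83.8 (-5.39 ± 0.23, adjusted p = 4.49e-12), Isg15, to 29.5 and 23.5 (-5.08 ± 0.32, adjusted p = 7.56e-10), and Ifit3b, to 21.3 and 8.71 (-4.83 ± 0.41, adjusted p = 3.02e-08). Libraries of the days compared did not overlap for any of these.

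At day 5, Ifi206, a gene of the IFI200 family, had 0 reads over both libraries, against 486 and 473 at day 0. With a floor of 3 reads over the group, each taken as a separate count, it was at least 177-fold lower. Ifi44 also had 0 reads, against 157 and 151 at day 0, and was by the same floor at least 56.8-fold lower. Zbp1 fell from 1636 and 1553 to 12.1 and 20.8 (log2 difference -6.56 ± 0.24, adjusted p = 3.09e-13). Cxcl9 had 2 reads at day 5, a ratio to day 0 of 0.0167 with a 95% counting interval of 0.00225 to 0.0683. With Ifi206 and Ifi44 set at their bounds the median of the 42 genes was also -4.996.

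The genes with the highest means in each role mostly descended in this way at day 1, day 3 and day 5 with Topsym. Irf7 was measured at 1365 and 1309, then 229 and 188, then 137 and 118. Stat2 was at 1150 and 1136, then 500 and 514, then 420 and 364. Usp18 was at 198 and 181, then 67.1 and 81.8, then 30.3 and 25.6. For these genes no library of a later day reached any of an earlier day. Isg15 ended at 16.1 and 16. Oasl2 was at 1389 and 1400, then 246 and 259, then 96.8 and 89.5. Ifit3 was at 834 and 759 at day 1 and at 28.2 and 59.1 at day 5. The same separation by day held for these effectors and for Isg15.

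Lgals3bp was measured at 3898 and 3836, then 941 and 826, then 143 and 142. Ifi27l2a was at 2045 and 2006, then 745 and 738, then 133 and 99.0. Neither gene had libraries of successive days that overlapped. Gbp2 was at 532 and 531, then 201 and 229, then 58.5 and 68.7. Irgm1 was at 542 and 573, then 270 and 254, then 90.8 and 84.7. The GTPases thus kept the same order of days. Cxcl9 was at 1.64 and 1.55, then 9.82 and 8.04, then 0 and 3.20, and its day 1 and day 5 means were nearly equal. Cxcl10 was at 17.2 and 19.3, then 9.01 and 14.1, then 0 and 9.59, with day 5 libraries far apart.

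Between successive days with Topsym, 1 gene rose and 37 fell from day 1 to day 3, with a median of -1.52, where 45.0% of all genes passed (22.1% higher, 22.9% lower). The largest falls were those of Ifit3 by 3.25, Oas3 by 2.69 (from 366 and 397 to 51.6 and 65.7) and Irf7 by 2.68, and the 1 rise was that of Cxcl9 by 1.93 at the low levels above. From day 3 to day 5, 1 rose and 38 fell, with a median of -1.85, where 62.2% passed (27.1% higher, 35.1% lower). Gbp7 fell by 3.19 (from 183 and 205 to 16.1 and 25.6), Ifit2 fell by 2.98 (from 165 and 173 to 20.2 and 20.8) and Iigp1 by 2.87 (from 200 and 168 to 36.3 and 16). Ifi35, which is named for its induction by interferon, went the other way, from 242 and 254 at day 3 to 549 and 524 at day 5 (log2 difference 1.11 ± 0.09, adjusted p = 2.87e-08).

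**Figure D4:**
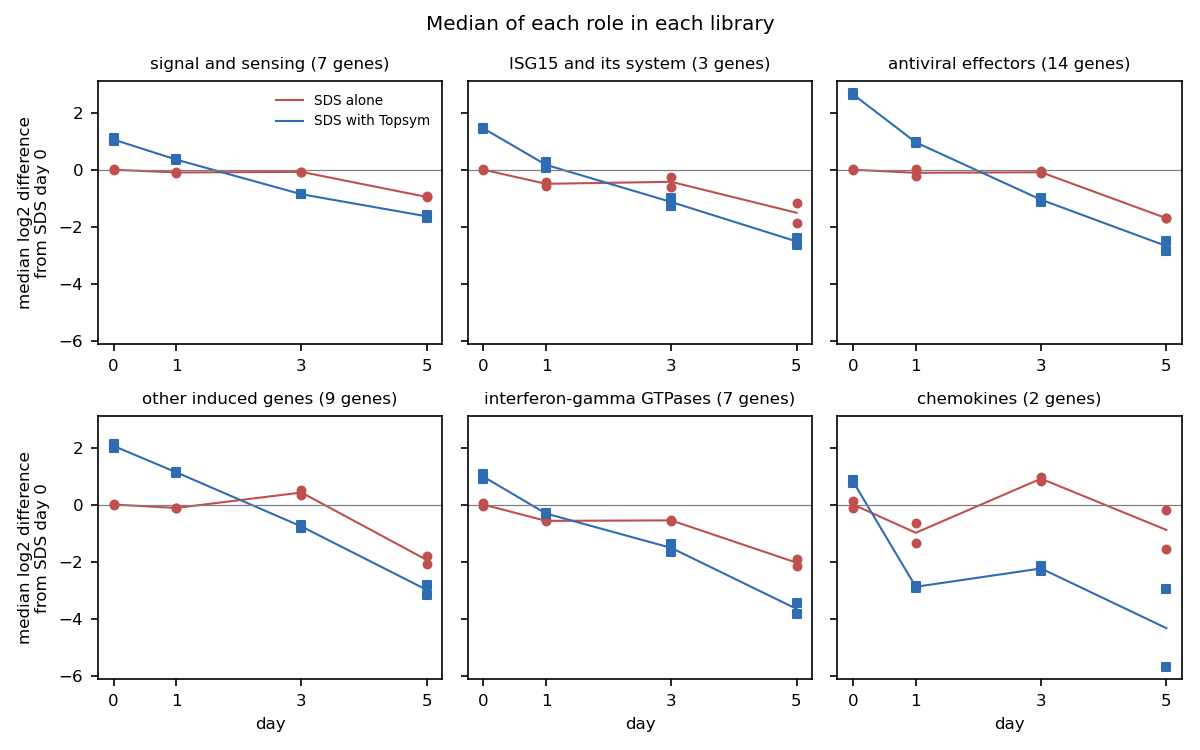
Median over the genes of each role of the log2 difference from SDS day 0 (vertical) by day (horizontal), 1 point a library (red circles, SDS alone; blue squares, SDS with Topsym), lines joining group means. The antiviral effectors start at the highest median in Topsym at day 0, and the chemokines with Topsym drop below all other roles at day 1.

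Compared with SDS alone on the same day, skin with Topsym held more of these transcripts at day 1 and fewer at day 3 and day 5. At day 1, 17 of the 42 were higher and 1 lower, with a median log2 difference of 0.82 against 0 over all genes, where 9.80% of all genes passed (5.51% higher, 4.29% lower). At day 3, 0 were higher and 35 lower, with a median of -1.14 against -0.04, where 43.8% passed (20.8% higher, 22.9% lower). At day 5, 1 was higher and 31 lower, with a median of -1.07 against -0.01, where 46.8% passed (22.6% higher, 24.2% lower). At day 1 both Topsym libraries were above both of SDS alone for 36 of the 42 genes and below for 4, against 27.3% above and 27.0% below over all genes tested. At day 3 they were above for 0 and below for 41, against 34.2% and 39.7% of all genes. At day 5 they were above for 2 and below for 30, against 31.7% and 32.1% of all genes.

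At day 1 the genes that were higher were 8 of 14 antiviral effectors, 5 of 9 other induced genes and 4 of 7 of signalling and sensing, while 0 of 7 GTPases and 0 of 3 genes of the ISG15 system passed. Ifi206 was measured at 30.1 and 63.8 in SDS alone and at 175 and 213 with Topsym (log2 difference 2.11 ± 0.51, adjusted p = 0.0132). Oas3 was at 87.4 and 94.9 against 366 and 397 (2.05 ± 0.23, adjusted p = 1.53e-05) and Irf7 at 419 and 406 against 1365 and 1309 (1.69 ± 0.13, adjusted p = 1.58e-07). Isg15, at 64.1 and 50.4 against 124 and 111, differed by 1.03 and did not pass. Cxcl9 was the 1 gene that was lower, at 30.1 and 14.3 against 1.64 and 1.55 (-3.07); its higher mean was under 100, so it was named after its values were seen. The count of 18 was 28 by edgeR on recovered reads and 33 without the 4 day 5 libraries in the fit, and the call of Ifi206 was lost without 3 of the 4 libraries in turn.

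At day 3 the lower genes were 13 of 14 antiviral effectors, 7 of 9 other induced genes, 6 of 7 GTPases, 6 of 7 of signalling and sensing, 1 of 3 of the ISG15 system and 2 of 2 chemokines. Cxcl9 was measured at 107 and 144 in SDS alone and at 9.82 and 8.04 with Topsym (log2 difference -3.66 ± 0.60, adjusted p = 9.22e-05). Isg15 stood at 144 and 128 against 29.5 and 23.5 (-2.33 ± 0.32, adjusted p = 1.42e-05), and Oas3 at 273 and 241 against 51.6 and 65.7 (-2.12 ± 0.23, adjusted p = 1.09e-06). Cxcl10, a second ligand of the receptor CXCR3, was lower by a log2 difference of -2.64. Oas3 and Dhx58 had risen in SDS alone by day 3. With Topsym at day 3, Oas3 lay within the range of the SDS day 0 libraries (50.2 and 78.5), and Dhx58, at 56.5 and 61.0, lay below theirs (98.7 and 68.9).

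At day 5 the GTPases were lower in 7 of 7 cases, with the lowest median of the roles but the chemokines, -2.12. Gbp2 was measured at 294 and 264 in SDS alone and at 58.5 and 68.7 with Topsym (log2 difference -2.12 ± 0.11, adjusted p = 2.35e-10), and Igtp at 128 and 157 against 24.2 and 38.3 (-2.18 ± 0.20, adjusted p = 2.43e-07). Ifit2 stood at 124 and 116 against 20.2 and 20.8 (-2.49 ± 0.15, adjusted p = 1.46e-09). Of the antiviral effectors 8 of 14 were lower, of the other induced genes 7 of 9, of signalling and sensing 5 of 7, of the ISG15 system 2 of 3 and of the chemokines 2 of 2. Ifi206 was at least 3.14-fold lower against the floor of 3 reads, and Cxcl9 had a ratio of 0.0341 with a 95% counting interval of 0.00458 to 0.145. Ifi35 was the 1 gene that was higher, at 387 and 424 against 549 and 524 (0.40 ± 0.09, adjusted p = 0.00225). In a fit of these 4 libraries by themselves, 9 genes passed in place of 32, and the call of Ifi35 was lost. Such a fit has fewer residual degrees of freedom and does not use the spread of the other groups. For SDS alone against day 0 it gave 22 in place of 15 at day 3 and 33 in place of 36 at day 5. The cause of these shifts was not tested.

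The same cell markers differed between the arms on these days. Monocyte and macrophage markers summed to 80900 to 81100 with Topsym at day 1, against 47000 to 48700 without. Of these markers 10 of 12 were higher, against 5.51% of all genes. At day 3 the sums were 34200 to 34900 with and 69400 to 71300 without, and at day 5 they were 8980 to 9760 and 13900 to 14000, with 12 of 12 lower at both days. T and NK cell markers summed to 497 to 665 with Topsym at day 1, 124 to 147 at day 3 with Cd8a at 0, and 52.7 to 74.6 at day 5 with Cd3d, Ncr1 and Klrb1c at 0. They were below SDS alone in 0 of 10, 4 of 10 and 4 of 10 cases, where 4.29%, 22.9% and 24.2% of all genes were lower. The neutrophil list, which includes S100a8 and S100a9, summed to 66000 to 66900 at day 3 without and 2730 to 2930 with Topsym, where Ly6g was at 0. At day 5 it summed to 265000 to 274000 without Topsym, although Ly6g and Camp were at 0, and to 36500 to 36600 with it. The sum of this list therefore cannot be read as an amount of neutrophils. The part of these cell markers in the lower interferon response was not tested.

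**Figure D5:**
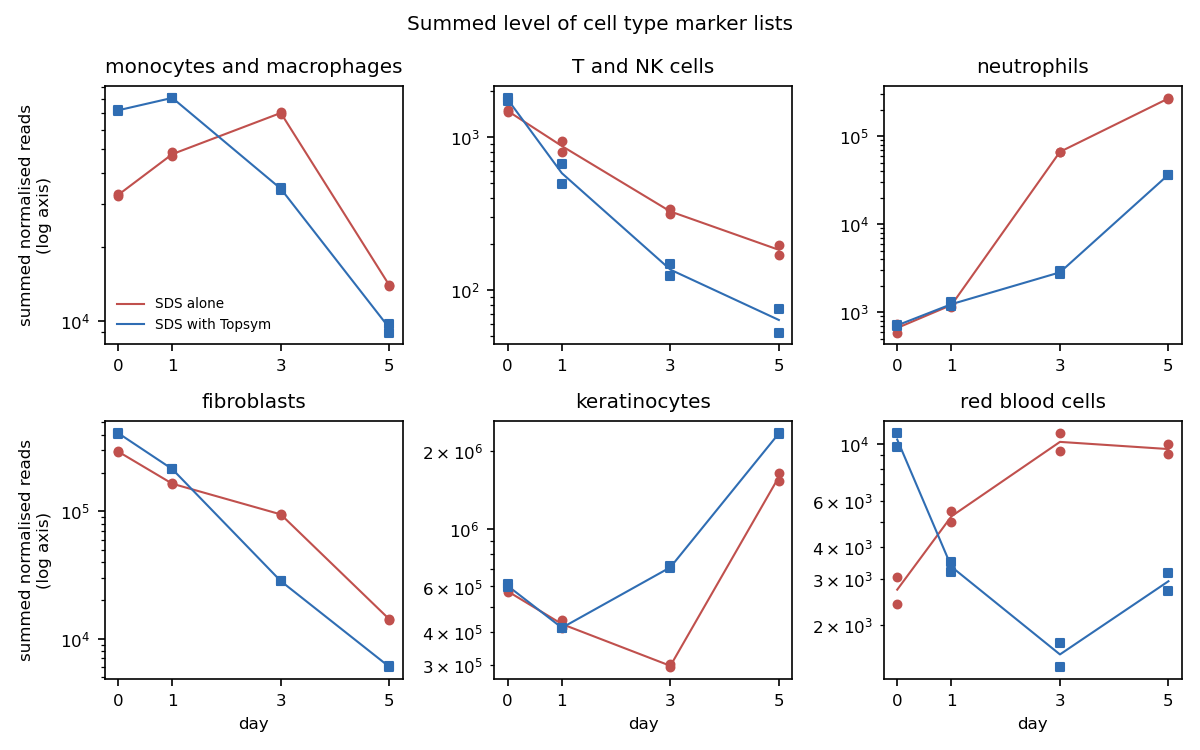
Summed normalised read count of 6 lists of cell type markers (vertical, log axis) by day (horizontal), 1 point a library (red circles, SDS alone; blue squares, SDS with Topsym), lines joining group means. Monocyte and macrophage markers with Topsym are above SDS alone at day 0 and day 1 and below it at day 3 and day 5, and T and NK cell markers go down with the days in both arms.

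Of the 45 other genes of the pathway, 3 were higher and 2 lower at day 1, 4 higher and 26 lower at day 3, and 8 higher and 23 lower at day 5. Their medians were 0.02, -0.66 and -0.38. Over all genes, 5.51% were higher and 4.29% lower at day 1, 20.8% and 22.9% at day 3, and 22.6% and 24.2% at day 5. The day 1 counts of the pathway genes lay near these shares. Samhd1, which depletes the nucleotides that viruses need, was the largest of the rises past the threshold at day 1 (log2 difference 0.39), and Jak2 the larger of the 2 falls past it (-0.27). Il12a, a subunit of the IFN-gamma inducer IL-12, had 105 reads in SDS alone at day 3 and 0 with Topsym. By the floor of 3 reads, each taken as a separate count, it was at least 41.4-fold lower.

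The change since day 0 was tested for a difference between the arms. This difference equals the gap between arms at the later day minus the gap at day 0, so the high Topsym level at day 0 enters all 3 comparisons. From day 0 to day 1, 25 of the 42 genes changed more to the negative side with Topsym and 0 to the positive side, with a median of -0.99, where 17.2% of all genes passed (9.18% higher, 8.06% lower). To day 3 it was 40 and 0, with a median of -3.09, where 39.0% passed (19.5% each way), and to day 5 41 and 0, with a median of -3.05, where 34.9% passed (17.3% higher, 17.7% lower). Medians over all genes lay between -0.02 and 0.00. The count of 25 was 16 without replicate 1 of Topsym day 0.

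For Isg15 the difference was -2.02 ± 0.45 to day 1 (adjusted p = 0.0047) and -5.38 ± 0.45 to day 3 (adjusted p = 6.49e-08). Mx1 differed by -1.92 ± 0.48 to day 1 (adjusted p = 0.0101), from 111 and 82.5 at day 0 to 93.2 and 76.4 at day 1 in SDS alone and from 702 and 662 to 177 and 141 with Topsym, and this call was lost without any of 3 single libraries. Ifit3 differed by -1.80 ± 0.32 to day 1 (adjusted p = 0.000762). At day 3 the largest values were those of Oas3 (-5.77 ± 0.33, adjusted p = 6.09e-10) and Oasl1 (-5.57 ± 0.76, adjusted p = 1.73e-05). At day 5 Oasl1 (-5.96 ± 0.76, adjusted p = 1.26e-05), Oas3 (-5.51 ± 0.33, adjusted p = 1.46e-09) and Ifi206 (-6.11 ± 0.72, adjusted p = 5.44e-06) led, where the value of Ifi206 rests on a group with 0 reads and depends on the pseudocount. By role, all 14 antiviral effectors and all 7 genes of signalling and sensing passed to day 3 and to day 5, while the GTPases gave 2 of 7 to day 1, 6 of 7 to day 3 and 7 of 7 to day 5.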

How the data were processed

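RNA of 16 mouse whole skin libraries was compared in 8 groups of 2, taken from the sample titles. The authors deposited a table of normalised read counts, a signal obtained, per the submitters' processing notes, with Trim Galore 0.6.7, HISAT2 2.2.1, featureCounts 2.0.3 and DESeq2 2.11.40.8 on build mm10. Values were whole multiples of 1 step a library, so reads could be recovered (15199656 to 32066246 a library), and recovered reads gave the same median-of-ratios scaling within 8.62e-10 percent. Intervals and floors cover counting error only.

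The 19189 of 32078 genes that reached 10 in 2 or more libraries were fitted as log2(value + 1) with limma 3.58.1 in R 4.3.3, all 8 groups together, with a trend of variance on level and 8 residual degrees of freedom. A log2 difference is on this scale and understates changes of low genes. P-values of 17 comparisons were each adjusted over all genes by Benjamini and Hochberg, with a threshold of 0.05. Values by library were given for the 2 genes of each role with the highest mean and for the 3 largest called rises and falls of each comparison among genes whose higher group averaged 100 or more. Other pathway genes are given by counts and by the values of a few, and others are not reported here. The 42 genes, the other lists and the tests were chosen with earlier results of these data known.

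Other settings tried were TMM factors, a pseudocount of 4, no filter, only the libraries compared, the replicate number as a block, each library left out in turn, and edgeR 4.0.16 and DESeq2 1.42.0 on recovered reads. After seeing the data, fits without both Topsym day 0 libraries and without the 4 day 5 libraries were added. The design text of the series describes another experiment and was not used.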

Additional observations from a re-analysis of the deposited data

Results flagged for a closer look

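The change since day 0 differed between the arms by a test of the difference itself for 25 of the 42 genes at day 1, 40 at day 3 and 41 at day 5, all towards the negative side with Topsym. The genes named for it gave log2 differences of -2.02 for Isg15, -1.92 for Mx1 and -1.80 for Ifit3 at day 1. At day 3 they were -5.77 for Oas3, -5.57 for Oasl1 and -5.38 for Isg15. At day 5 they were -6.11 for Ifi206, -5.96 for Oasl1 and -5.51 for Oas3. Each of these values holds the Topsym gap at day 0 with its sign turned, and 3.65 of it for Oas3 and 3.84 for Oasl1 were already present at day 0.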

How the results depend on the processing

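No named gene changed direction under any alternative run, and 58 of 58 named results kept their side of the threshold under a pseudocount of 4, TMM factors, edgeR, DESeq2 and the replicate block. Counts of called genes moved as follows, and the cause was not tested. At day 1 of SDS alone against day 0 the count of 7 was 15 by edgeR, 14 by DESeq2, 4 without both Topsym day 0 libraries in the fit and 18 without the 4 day 5 libraries. At day 3 against day 0 the count of 15 was 23 by edgeR, 23 by DESeq2 and 24 without day 5. At day 3 against day 1 the count of 12 was 20 with only the libraries compared, 20 by edgeR, 20 by DESeq2 and 24 without day 5. For Topsym against none at day 1 the count of 18 was 28 by edgeR, 28 by DESeq2 and 33 without day 5. For Topsym at day 5 the count of 32 was 9 with only the libraries compared. Leaving out each library in turn gave 1 to 4 at day 1 and 9 to 11 at day 3 of SDS alone against day 0, 8 to 9 at day 3 against day 1, and 16 to 21 for the difference between arms to day 1. A lone library left in a group is assumed to vary like the other groups. Same-numbered libraries did not deviate together (correlations of -0.0313 to 0.0298 over 28 pairs of groups), so the replicate number was not taken as a pairing, and the replicate block left every count within 1.5 times.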
